A study of Mus musculus with 6 samples.

Results

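The lipins and the acyltransferases around them assemble triglyceride from glycerol 3-phosphate, and their transcripts were followed in mouse livers that lack Zpbp2 and in wild-type livers. The 10 genes, of 37991 in the count table, were Lpin1, Lpin2, Lpin3, Gpam, Gpat4, Agpat2, Agpat3, Dgat1, Dgat2 and Mogat1. They were chosen by their place in 1 pathway and by the Zpbp2 KO against WT difference of Lpin1, which was already known, so their values between genotypes are a description and not independent support for a change. RNA-seq was done on livers of 12-week-old males, 3 B6.Zpbp2-/- (Zpbp2 KO) and 3 C57BL/6J (WT). Zpbp2 KO mice lack zona pellucida binding protein 2, a sperm protein, in the whole animal. Both genotypes share the C57BL/6J strain, and no treatment is labelled for either. The sources used here do not say what the allele deletes, whether the mice were fed, or at what hour livers were taken. The series title links the knockout to altered lipid metabolism, and the comparison asks which transcripts differ between the genotypes.

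In the glycerol phosphate pathway, a glycerol-3-phosphate acyltransferase (GPAT) adds a first fatty acid and an acylglycerophosphate acyltransferase (AGPAT) a second, which gives phosphatidate. Lipins remove the phosphate of phosphatidate to give diacylglycerol, and a diacylglycerol acyltransferase (DGAT) adds the last fatty acid. Diacylglycerol also feeds phosphatidylcholine and phosphatidylethanolamine synthesis, and a lipin in the nucleus can act with PPARa and its coactivators on genes of fatty acid oxidation. In liver the pathway supplies stored fat and the triglyceride of secreted lipoproteins, and hepatic Lpin1 is known to respond to fasting, glucocorticoids and the daily clock.

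Libraries held 37904891 to 52955687 counts. Zpbp2 had 0 counts in each Zpbp2 KO liver and 4, 13 and 7 counts in WT replicates 1, 2 and 3. Hepatocyte markers identified the tissue, with Alb at 7.23% to 7.83% of counts in Zpbp2 KO livers and 6.68% to 7.64% in WT livers. The 6 hepatocyte markers in the table summed to 100761 to 106279 CPM in Zpbp2 KO and 90237 to 98851 CPM in WT livers, without overlap. All 6 had a log2 fold change above 0, with a median of 0.13. Each of them overlapped between the groups, and edgeR called 0. A pair of libraries stood apart by transcripts of other organs. The 6 skeletal muscle markers summed to 102 CPM (counts scaled to library size by TMM) in WT replicate 1 and to 0.472 to 0.920 CPM in the other 5 livers. The 6 pancreas markers summed to 116 CPM in Zpbp2 KO replicate 1 and to 0.572 to 1.03 CPM elsewhere, with Prss1 and Amy2a1 at 0 in every library. The 7 fat cell markers summed to 19.1 to 31.7 CPM in Zpbp2 KO livers and 21.5 to 25.1 CPM in WT livers, mostly from Lipe and Fabp4. Of them Adipoq, the adipocyte hormone adiponectin, stood at 0 to 0.544 CPM in Zpbp2 KO livers and 0 to 0.114 CPM in WT livers. Zpbp2 KO replicate 1, the library with pancreas transcripts, was highest for every fat cell marker except Lipe. Whether fat cell transcripts have a part in the levels of the members was not tested. Kupffer cell and macrophage markers summed to 127 CPM in Zpbp2 KO replicate 2 and to 230 to 420 CPM in the other 5 livers. That liver was also lowest for summed endothelial markers (102 CPM, against 159 to 259 CPM elsewhere) and summed stellate cell markers (197 CPM, against 207 to 270 CPM). The stellate list was split, with Lrat, Dcn and Reln lowest in that liver and Des, Col1a1 and Col3a1 not lowest there. Zpbp2 KO replicate 2 was highest for summed hepatocyte markers, and not lowest for summed lymphocyte or cholangiocyte markers. In whole liver, fewer cells of a type and less RNA per cell cannot be told apart.

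Lpin1 was the member that differed most between the genotypes, and by edgeR's quasi-likelihood test it did not pass. None of the other 9 members did either. Of all 14686 tested genes edgeR called 0% higher and 0.0136% lower in Zpbp2 KO, and of the 10 members, all of which passed the filter on low counts, 0 in either direction. Of members with an unadjusted p below 0.05 there was 1, Lpin1, which was higher, against 2.86% of all tested genes higher and 2.93% lower. DESeq2, which calls more genes here (0.184% higher and 0.334% lower), called Lpin1 higher and no other member. Over the members the median log2 fold change was -0.02, against 0.01 over all tested genes. Nothing is read from these counts, since the list was drawn up with the same contrast known.

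**Figure D1:**
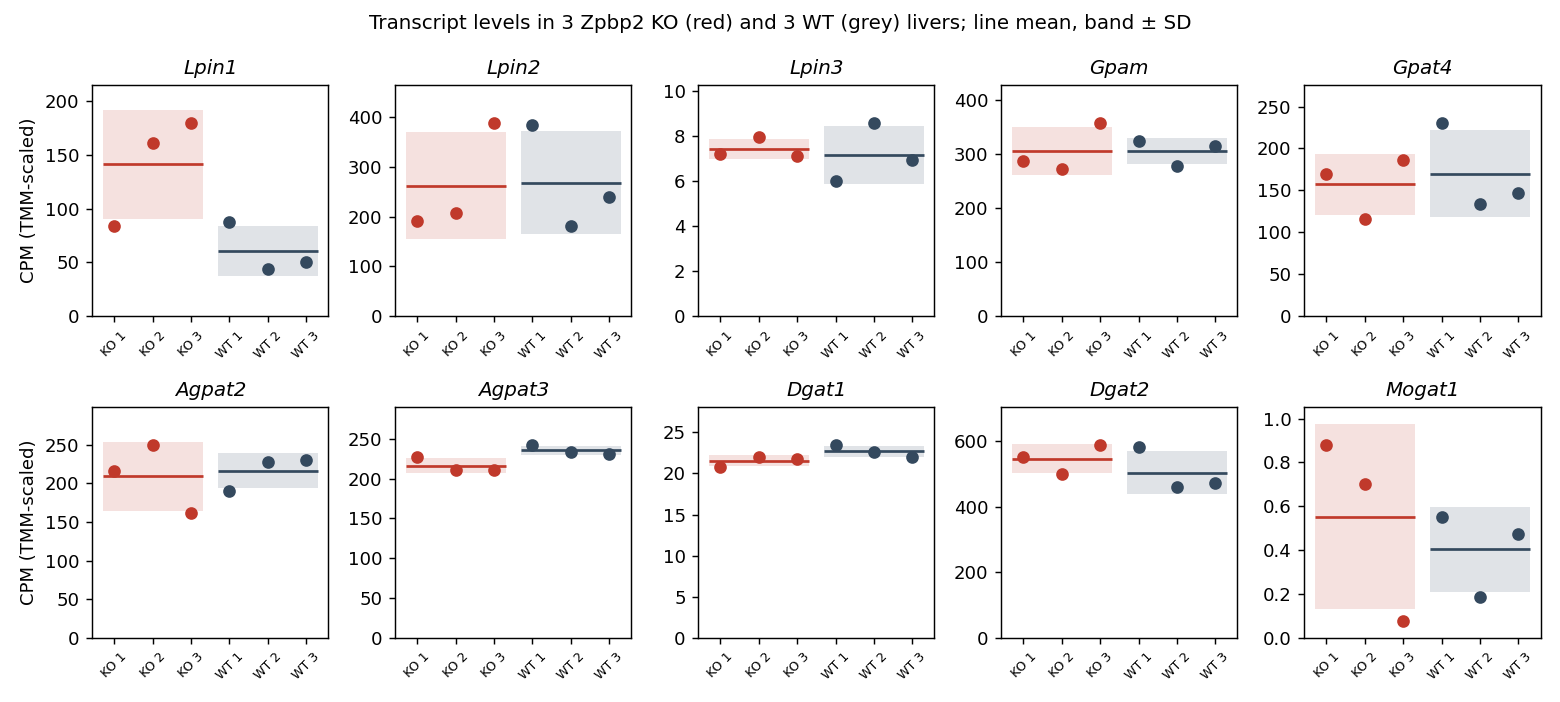
CPM of each of the 10 genes in 3 Zpbp2 KO livers (red, left) and 3 WT livers (grey, right). The line is the group mean and the band ± SD (n = 3), each panel has its own axis from 0, and the Lpin1 panel shows Zpbp2 KO livers at 83.8, 161 and 179 CPM and no WT liver above 87.5 CPM.

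The lipins are the phosphatidate phosphatases of this pathway. Lpin1 (ENSMUSG00000020593, chromosome 12) is the founding member, whose loss in the fatty liver dystrophy mouse gives a fatty liver in pups and almost no body fat. Lpin2 (ENSMUSG00000024052, chromosome 17) is the main lipin protein of mouse liver, and its human gene is mutated in Majeed syndrome, an inflammatory bone disease. Lpin3 (ENSMUSG00000027412, chromosome 2) is the least studied, with most expression in gut. RefSeq promoter sequences on the GRCm38.p6 build matched 7 of the 10 members, all except Gpat4, Dgat1 and Dgat2. The 250 bases before the annotated start are shown for the 2 lipins whose transcripts varied most between livers, and for Gpam. Gpam had the same top pair of livers as Lpin2, with WT replicate 1 (325 CPM) close to WT replicate 3 (315 CPM). Capitals mark the matches, on either strand, to an E-box (CACGTG, read by clock and USF factors), a cAMP response half-site (TGACG) and a nuclear receptor half-site (AGGTCA).
Lpin1, chr12:16610967-16611216, minus strand: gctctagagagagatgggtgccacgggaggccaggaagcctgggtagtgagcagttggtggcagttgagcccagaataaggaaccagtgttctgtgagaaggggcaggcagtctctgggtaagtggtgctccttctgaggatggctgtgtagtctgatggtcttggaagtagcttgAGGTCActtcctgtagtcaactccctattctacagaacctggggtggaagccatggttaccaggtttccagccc
Lpin2, the first of 3 annotated starts, chr17:71183282-71183531, plus strand: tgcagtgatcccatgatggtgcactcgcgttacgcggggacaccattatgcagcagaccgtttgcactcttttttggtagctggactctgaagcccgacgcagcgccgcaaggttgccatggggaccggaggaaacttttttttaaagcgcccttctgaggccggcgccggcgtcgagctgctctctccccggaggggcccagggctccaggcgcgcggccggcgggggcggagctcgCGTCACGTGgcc
Gpam, the second of 2 annotated starts, chr19:55099478-55099727, minus strand: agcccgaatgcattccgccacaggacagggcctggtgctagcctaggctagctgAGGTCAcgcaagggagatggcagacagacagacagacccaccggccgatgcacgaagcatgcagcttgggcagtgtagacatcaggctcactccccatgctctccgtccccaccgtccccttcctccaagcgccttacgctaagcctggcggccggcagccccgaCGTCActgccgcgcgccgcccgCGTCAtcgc

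The Lpin1 window held 1 nuclear receptor half-site, which begins 74 bases before the start and is a sequence that 14.0% of all 32851 promoter windows of this length hold. The Lpin2 window held an E-box, present in 6.02% of windows, whose letters overlap a cAMP response half-site, present in 17.8%. The Gpam window held 2 cAMP response half-sites and 1 nuclear receptor half-site, while the other Gpam start and the other 2 Lpin2 starts held no match. The full cAMP response element TGACGTCA (1.55% of windows), which contains the half-site, and the sterol response element TCACNCCAC (1.05%) matched no window of the 7 members, and the windows of Lpin3, Agpat2, Agpat3 and Mogat1 held none of the 5 motifs. Which start is used in these livers was not measured, and a match is a description of letters only.

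Lpin1 stood at 83.8, 161 and 179 CPM in Zpbp2 KO replicates 1, 2 and 3, and at 87.5, 43.5 and 50.8 CPM in WT replicates 1, 2 and 3. Zpbp2 KO replicates 2 and 3 were well above every WT liver, and the groups overlapped because Zpbp2 KO replicate 1 lay just under WT replicate 1. The means were 141 ± 50.6 CPM in Zpbp2 KO and 60.6 ± 23.6 CPM in WT livers (SD, n = 3 each). The log2 fold change was 1.22 ± 0.330 (SE), with a 95% interval of 0.47 to 1.98, which is 1.38-fold to 3.94-fold. The adjusted p over all tested genes was 0.663 by edgeR's quasi-likelihood test, 0.724 by limma-voom and 0.0222 by DESeq2. WT replicate 1, the highest of the WT livers for Lpin1, was the library with skeletal muscle transcripts (Acta1, skeletal actin, at 39.4 CPM and at most 0.0560 CPM elsewhere), and muscle is known for high Lpin1. The part of these transcripts in the Lpin1 level was not tested. Without WT replicate 1 the log2 fold change was 1.58 (edgeR adjusted p = 0.518, range 0.327 to 1.00 over the 6 libraries left out in turn), and the groups no longer overlapped. Without both WT replicate 1 and Zpbp2 KO replicate 1, chosen after seeing the data, the log2 fold change was 1.85 (edgeR adjusted p = 0.0584). Those are the highest WT liver and the lowest Zpbp2 KO liver for Lpin1. Leaving them out widens the difference by choice, so this fit gives no support for a change.

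Lpin2 showed no shift by genotype beyond the spread between livers. It stood at 192, 208 and 387 CPM in Zpbp2 KO replicates 1, 2 and 3, and at 383, 182 and 240 CPM in WT replicates 1, 2 and 3. The highest livers were Zpbp2 KO replicate 3 and WT replicate 1, 1 of each genotype, so the groups overlapped almost entirely. The log2 fold change was -0.03 ± 0.327, with a 95% interval of -0.78 to 0.72, which spans 0.582-fold to 1.64-fold. Its sign turned with the library left out, which ran from -0.42 without Zpbp2 KO replicate 3 to 0.31 without WT replicate 1.

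Lpin3 was low and even. It stood at 7.21, 7.94 and 7.13 CPM in Zpbp2 KO replicates 1, 2 and 3, and at 5.99, 8.56 and 6.92 CPM in WT replicates 1, 2 and 3. The Zpbp2 KO values fell inside the WT range, with a log2 fold change of 0.05 ± 0.168.

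Set against the other lipins within a liver, Lpin1 took a larger share in every Zpbp2 KO liver than in any WT liver. As a share of lipin transcripts per exonic length (CPM per kb of exons), Lpin1 took 32.9%, 46.5% and 35.6% in Zpbp2 KO replicates 1, 2 and 3, and 21.6%, 20.7% and 19.7% in WT replicates 1, 2 and 3. The groups did not overlap. WT replicate 1, the library with muscle transcripts, was the highest WT liver for Lpin2 as well as for Lpin1. The part of muscle transcripts in the shares was not tested. The mean share of Lpin1 was 38.3 ± 7.19% in Zpbp2 KO and 20.7 ± 0.947% in WT livers (SD, n = 3 each). Lpin2 made up the larger share in every liver, with 47.5% to 60.7% in Zpbp2 KO and 68.6% to 74.6% in WT livers. These ranges do not overlap either, but the shares are parts of the same whole. A larger Lpin1 share leaves a smaller one for Lpin2, so this is not a further difference between the genotypes. Lpin3 took 3.70% to 7.42% in Zpbp2 KO and 3.86% to 10.7% in WT livers. Leaving out any 1 library kept the mean share of Lpin1 at 34.3% to 41.0% in Zpbp2 KO and 20.2% to 21.1% in WT livers. No test is given for the shares, because they contain the Lpin1 values that were known when the genes were listed. The sum of the lipins per kb was 38.1 ± 13.0 in Zpbp2 KO and 30.1 ± 10.6 in WT livers, a difference smaller than either SD.

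**Figure D2:**
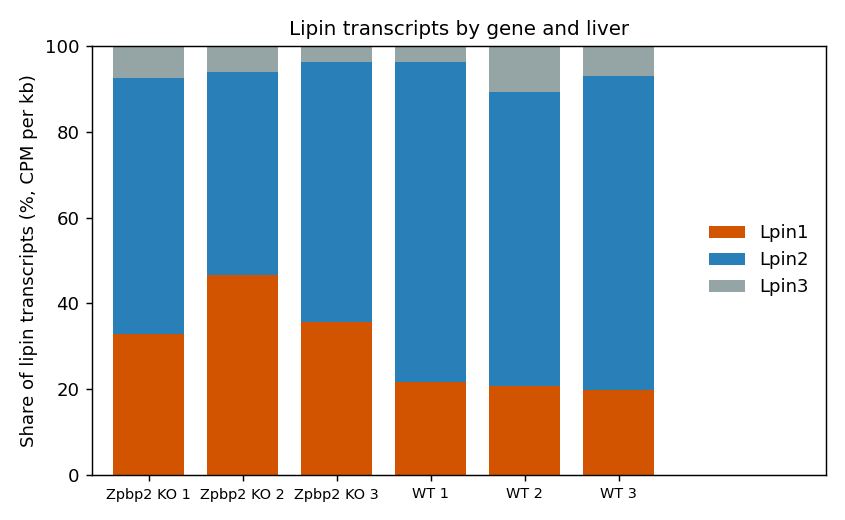
Share of Lpin1, Lpin2 and Lpin3 in the lipin transcripts of each liver, in percent of summed CPM per kb of exons, for 3 Zpbp2 KO livers (left) and 3 WT livers (right). The Lpin1 part is 32.9% to 46.5% in Zpbp2 KO livers and 19.7% to 21.6% in WT livers.

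The GPAT genes showed no shift by genotype beyond the spread between livers. Gpam (ENSMUSG00000024978, chromosome 19) encodes the mitochondrial acyltransferase that insulin and SREBP1c induce in liver. Gpam stood at 287, 273 and 357 CPM in Zpbp2 KO replicates 1, 2 and 3, and at 325, 278 and 315 CPM in WT replicates 1, 2 and 3. The groups overlapped, and the log2 fold change was -0.0024 ± 0.126 with a 95% interval of -0.29 to 0.29. Gpat4 (ENSMUSG00000031545, chromosome 8) encodes an acyltransferase of the endoplasmic reticulum and of growing lipid droplets. Gpat4 stood at 170, 116 and 186 CPM in Zpbp2 KO replicates 1, 2 and 3, and at 230, 133 and 147 CPM in WT replicates 1, 2 and 3. It was lowest in Zpbp2 KO replicate 2 and highest in WT replicate 1, with a log2 fold change of -0.11 ± 0.236. Gpam took 64.5 ± 3.62% of GPAT transcripts per kb in Zpbp2 KO and 63.0 ± 4.95% in WT livers, when Gpat2 and Gpat3 are counted too. Gpat3, the main GPAT of fat cells, was near the bottom at 1.34 to 1.94 CPM in Zpbp2 KO and 1.61 to 3.28 CPM in WT livers.

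Neither AGPAT member passed the test. Agpat2 (ENSMUSG00000026922, chromosome 2), whose human gene is mutated in congenital generalized lipodystrophy, stood at 216, 249 and 162 CPM in Zpbp2 KO replicates 1, 2 and 3. In WT replicates 1, 2 and 3 it stood at 191, 228 and 231 CPM. Its lowest livers were the ones where Lpin2 was highest, and the log2 fold change was -0.05 ± 0.162. Exons of Agpat2 overlap those of Egfl7, an endothelial gene on the opposite strand with up to 1642 counts. The overlap is 64 bases, and whether the counting used strand is not stated in the sources used here, so reads there cannot be told apart. Agpat3 (ENSMUSG00000001211, chromosome 10) encodes an enzyme that favours polyunsaturated fatty acids. Agpat3 stood at 227, 211 and 211 CPM in Zpbp2 KO replicates 1, 2 and 3, and at 242, 234 and 231 CPM in WT replicates 1, 2 and 3. Every Zpbp2 KO liver was below every WT liver, by a small step of -0.12 ± 0.0860 on the log2 scale (95% interval -0.32 to 0.07, edgeR adjusted p = 0.803). Of the members, 2 were without overlap and lower in Zpbp2 KO, Agpat3 and Dgat1, and 0 were without overlap and higher, against 6.01% and 5.56% of all tested genes.

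Dgat2 was the most abundant member and Dgat1 the steadiest. Dgat2 (ENSMUSG00000030747, chromosome 7), the enzyme that draws on newly made fatty acids, stood at 551, 499 and 588 CPM in Zpbp2 KO replicates 1, 2 and 3. In WT replicates 1, 2 and 3 it stood at 581, 461 and 472 CPM, so WT replicate 1 lay inside the Zpbp2 KO range. The log2 fold change was 0.11 ± 0.121, with a 95% interval of -0.16 to 0.39. Dgat1 (ENSMUSG00000022555, chromosome 15), which also esterifies fatty acids from outside the cell, stood at 20.8, 22.0 and 21.8 CPM in Zpbp2 KO replicates 1, 2 and 3. In WT replicates 1, 2 and 3 it stood at 23.4, 22.6 and 22.0 CPM, and the closest pair of livers across the genotypes, Zpbp2 KO replicate 2 and WT replicate 3, differed by less than 0.1 CPM. The log2 fold change was -0.08 ± 0.0969, with a 95% interval of 0.813-fold to 1.11-fold. Dgat2 took 96.2 ± 0.363% of the transcripts of the 2 genes per kb in Zpbp2 KO and 95.6 ± 0.419% in WT livers.

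Mogat1 (ENSMUSG00000012187, chromosome 1) encodes a monoacylglycerol acyltransferase, which bypasses the phosphatidate steps and is known to increase in fatty mouse liver. It gave 42, 32 and 4 counts in Zpbp2 KO replicates 1, 2 and 3, and 29, 10 and 18 counts in WT replicates 1, 2 and 3. These are 0.0766 to 0.878 CPM in Zpbp2 KO and 0.187 to 0.553 CPM in WT livers, and the lowest and highest values both came from Zpbp2 KO livers. The log2 fold change of 0.45 ± 0.718 had a 95% interval of 0.436-fold to 4.26-fold, so these livers do not resolve a difference in either direction. Its exons overlap by 200 bases those of BC035947 on the opposite strand, which had at most 3 counts.

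**Figure D3:**
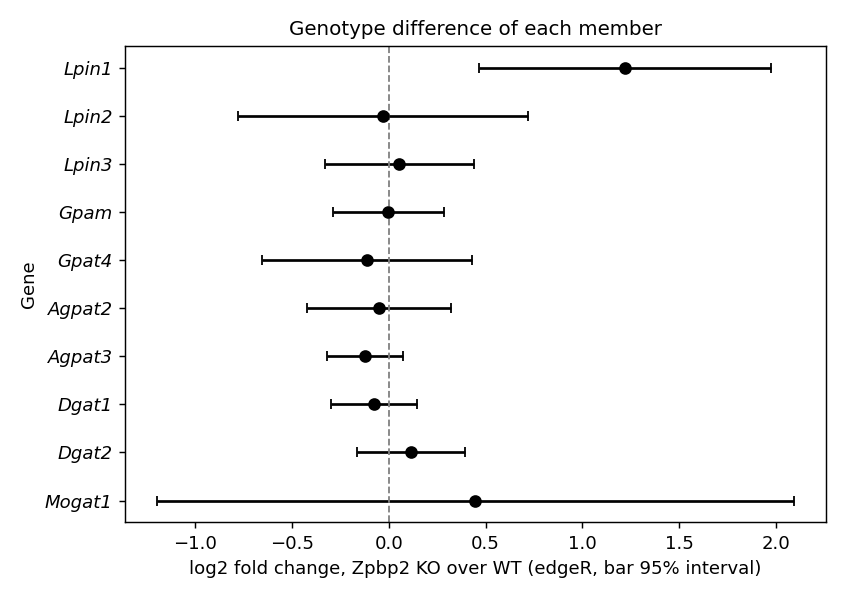
Log2 fold change of each gene, Zpbp2 KO over WT, by edgeR's quasi-likelihood fit (points), with 95% intervals (bars) and a dashed line at 0. The interval of Lpin1 runs from 0.47 to 1.98, and those of the other 9 genes include 0.

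Per exonic length the members spanned a wide range, with the same top and bottom in both genotypes. Dgat2 was highest, at 177 ± 14.4 CPM per kb in Zpbp2 KO and 164 ± 21.6 CPM per kb in WT livers (SD, n = 3 each). Agpat2 came next at 98.1 ± 20.7 CPM per kb in Zpbp2 KO and 102 ± 10.5 CPM per kb in WT livers, and then Gpam at 45.9 ± 6.75 and 46.0 ± 3.69 CPM per kb in Zpbp2 KO and WT livers. Agpat3, Gpat4 and Lpin2 followed in that order, and neighbours among them overlapped in both genotypes. Below them, with a range that met that of Lpin2 in Zpbp2 KO livers, Lpin1 stood at 14.6 ± 5.24 CPM per kb in Zpbp2 KO and 6.27 ± 2.44 CPM per kb in WT livers. Dgat1 stood at 7.05 ± 0.221 CPM per kb in Zpbp2 KO and 7.43 ± 0.229 CPM per kb in WT livers. Lpin1 was thus above Dgat1 in every Zpbp2 KO liver, while in WT livers their ranges overlapped. Lpin3, at 2.01 ± 0.120 CPM per kb in Zpbp2 KO and 1.94 ± 0.352 CPM per kb in WT livers, and Mogat1, at 0.354 ± 0.270 and 0.259 ± 0.123 CPM per kb in Zpbp2 KO and WT livers, closed the order. Exonic length counts all annotated exons of GENCODE M21. With the length of the principal transcript instead, chosen after seeing the data, Lpin2 rather than Agpat3 came after Gpam, with 46.5 CPM per kb in Zpbp2 KO and 47.6 CPM per kb in WT livers.

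**Figure D4:**
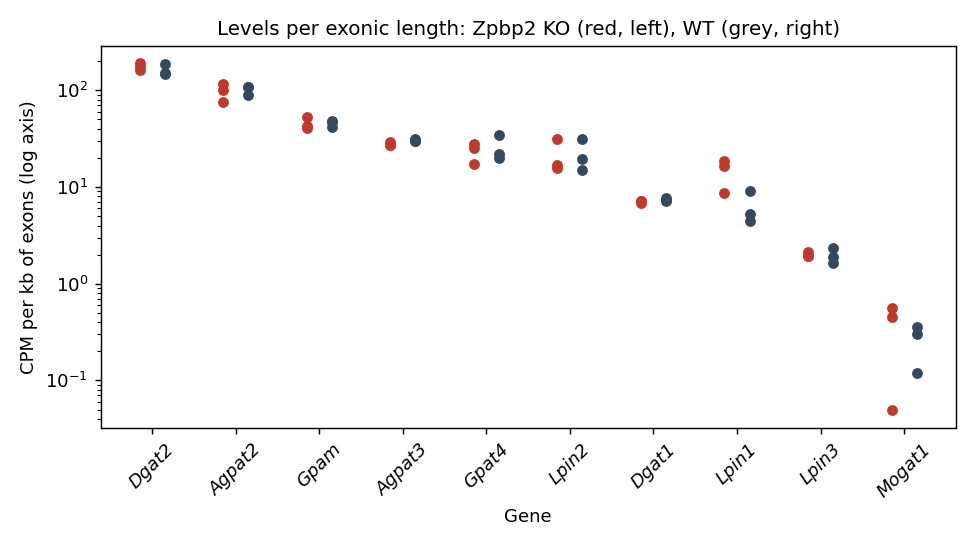
CPM per kb of exons for each gene, on a log axis, with 3 Zpbp2 KO livers (red, left of each gene) and 3 WT livers (grey, right). Dgat2 lies above 149 CPM per kb in every liver and Mogat1 below 0.6 CPM per kb, and the Lpin1 points of Zpbp2 KO lie mostly above those of WT.

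Across the 6 livers, the members ranged from among the most variable genes to among the steadiest. The coefficient of variation over all 6 livers was 56.1% for Lpin1, 35.7% for Lpin2 and 25.0% for Gpat4, against a median of 11.6% over the 9395 tested genes with a mean of at least 5 CPM. Dgat1 and Agpat3, the second at 5.56%, were among the steadiest, and 2.75% of those genes were steadier than Dgat1 and 8.70% steadier than Agpat3. Gpam (10.6%), Dgat2 (10.6%), Lpin3 (12.1%) and Agpat2 (14.8%) were near the median.

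One pattern across livers cut across the genotypes. Zpbp2 KO replicate 3 and WT replicate 1 were the top livers for 4 of the 10 members, namely Lpin2, Gpam, Gpat4 and Dgat2, and the bottom livers for Agpat2. For Gpam the next liver, WT replicate 3 at 315 CPM, lay close to WT replicate 1 at 325 CPM. Of all tested genes, 9.49% had this pair on top and 11.8% had it at the bottom. The pair was picked after seeing the Lpin2 values, and the members belong to 1 pathway, so this is a description. Among the 19 lipin regulators listed, 6 had the same pair on top, including Ppara, Ppargc1b, Srebf1 and Esrra, which encode nuclear receptors, a coactivator and the SREBP1 factor, and 2 had it at the bottom. The pair was on top for 2 of 11 genes of fatty acid uptake, 2 of 7 of glycerol 3-phosphate supply, 3 of 22 branch enzymes and 1 of 20 of storage and export. It was on top for 0 of the 7 other GPAT and AGPAT, 0 of the 5 other phosphatase and 0 of the 5 other MGAT and DGAT genes. Srebf1 stood at 296, 367 and 544 CPM in Zpbp2 KO replicates 1, 2 and 3, and at 398, 261 and 248 CPM in WT replicates 1, 2 and 3. Chka, a choline kinase whose product leads diacylglycerol into phosphatidylcholine, had this pair at the bottom. It stood at 29.6 CPM in Zpbp2 KO replicate 3 and 25.9 CPM in WT replicate 1, and at 78.5 to 114 CPM in the other 4 livers. Of the pair, muscle markers summed to 0.920 CPM in Zpbp2 KO replicate 3 and 102 CPM in WT replicate 1. Whether muscle transcripts have a part in this pattern was not tested. The regulators named here and Chka were chosen after their values were seen.

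**Figure D5:**
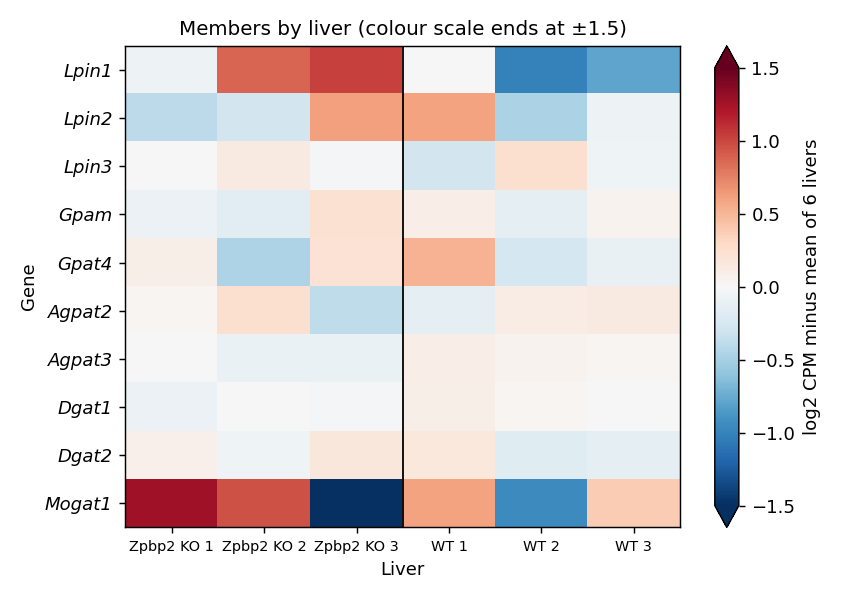
Log2 CPM of each gene in each liver minus its mean over the 6 livers, with 3 Zpbp2 KO livers left of the line and 3 WT livers right of it. Lpin2 and Gpat4 are red in Zpbp2 KO replicate 3 and WT replicate 1, where Agpat2 is blue, and Lpin1 is red in Zpbp2 KO replicates 2 and 3.

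The genes most like Lpin1 over the 6 libraries, by Pearson r of log2 CPM and leaving out the members, were Gm12265 (r = 0.992), Cyp2s1 (r = 0.980), Gorasp1 (r = 0.979), Gm15318 (r = 0.979) and ENSMUSG00000086351 (r = 0.970). Gm12265 and Gm15318 are annotated antisense transcripts, Cyp2s1 encodes a cytochrome P450, and Gorasp1 a Golgi stacking protein. All but Gorasp1 were low over the 6 livers. Cyp2s1 stood at 0.341 to 0.877 CPM and ENSMUSG00000086351 at 0.336 to 0.785 CPM. Gm12265 stood at 2.39 to 4.83 CPM and Gm15318 at 1.81 to 3.47 CPM. Over 6 libraries, which all these points share, 32 of 14676 genes (0.218%) reached an r of at least 0.95, and the values are a description. Gorasp1 was the one of the 5 whose groups did not overlap, at 30.2, 32.4 and 34.3 CPM in Zpbp2 KO replicates 1, 2 and 3, and 28.8, 26.3 and 26.4 CPM in WT replicates 1, 2 and 3. Pnpla3, a lipid droplet acyltransferase and lipase gene that SREBP1c induces, ranked 7th of the 14676. It stood at 2.13, 4.87 and 5.98 CPM in Zpbp2 KO replicates 1, 2 and 3, and at 2.75, 1.68 and 1.78 CPM in WT replicates 1, 2 and 3 (log2 fold change 1.06 ± 0.379, edgeR adjusted p = 0.798). Like Lpin1, it was highest in Zpbp2 KO replicates 2 and 3, and the groups overlapped through replicate 1 of each. Its rank by r was taken over these same livers, so this is not a further likeness. Pnpla3 was named after its values were seen.

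Around the members, 8 lists of the pathway held 96 tested genes, and edgeR called 0 of them. Before adjustment 1 was higher and 8 were lower at a p below 0.05, against 2.86% of all tested genes higher and 2.93% lower. DESeq2 called 1, G0s2, as lower. Upstream, fatty acid activation and uptake had 5 of 11 genes above 0 (median log2 fold change -0.05). Acsl1, the main acyl-CoA synthetase of liver, stood at 923 to 976 CPM in Zpbp2 KO and 1086 to 1374 CPM in WT livers, without overlap (-0.36 ± 0.111, edgeR adjusted p = 0.714). The fatty acid transporter gene Slc27a2 had a log2 fold change of -0.19 ± 0.115. Glycerol 3-phosphate supply had all 7 tested genes below 0, with a median of -0.23, where 6922 of all 14686 tested genes were below 0. Without WT replicate 1, the library with muscle transcripts, the median and Gk itself stood at -0.10. Gpd1, glycerol-3-phosphate dehydrogenase, stood at -0.25 ± 0.119, and Gk, glycerol kinase, at -0.23 ± 0.117, from 96.9 to 100.2 CPM in Zpbp2 KO and 104 to 134 CPM in WT livers.

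The side branches and alternatives to the members gave medians between -0.10 and -0.01. The other GPAT and AGPAT enzymes had 3 of 7 genes above 0 (median -0.01), with Lpgat1, a lysophosphatidylglycerol acyltransferase, at -0.28 ± 0.108 and Gpat3 at -0.63 ± 0.307. The other phosphatidate phosphatases had 1 of 5 above 0 (median -0.05), with Plpp5 at 0.43 ± 0.215 and Plpp3 at -0.21 ± 0.140. The other MGAT and DGAT relatives had 2 of 5 above 0 (median -0.05), with the lysophosphatidylcholine acyltransferase gene Lpcat3 at -0.14 ± 0.0942 and the cholesterol acyltransferase gene Soat1 at -0.30 ± 0.350. Phosphatidate and diacylglycerol branch enzymes had 7 of 22 above 0 (median -0.10). Dgke, a diacylglycerol kinase that returns diacylglycerol to phosphatidate, stood at 2.10 to 2.51 CPM in Zpbp2 KO and 3.03 to 4.95 CPM in WT livers (-0.86 ± 0.226, edgeR adjusted p = 0.659). Dgke lies on chromosome 11, as Zpbp2 does, and whether its location has a part in its level was not tested. Selenoi, ethanolamine phosphotransferase, stood at -0.33 ± 0.123.

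Lipin regulators had 6 of 19 genes above 0 and a median of -0.04. Sirt1, a deacetylase, stood at 10.2 to 13.0 CPM in Zpbp2 KO and 14.8 to 16.2 CPM in WT livers (-0.40 ± 0.128, edgeR adjusted p = 0.753), and Ppara at -0.51 ± 0.262. Ppargc1a, the coactivator that induces Lpin1 in fasting, stood at 7.74, 5.20 and 16.3 CPM in Zpbp2 KO replicates 1, 2 and 3, and at 7.04, 6.59 and 7.31 CPM in WT replicates 1, 2 and 3. Ppargc1a was high in 1 liver, Zpbp2 KO replicate 3, and lowest in Zpbp2 KO replicate 2. Its part in the Lpin1 level was not tested. Triglyceride storage and export had 8 of 20 above 0 and a median of -0.05. G0s2, an inhibitor of the lipase ATGL, stood at 27.6, 53.5 and 21.4 CPM in Zpbp2 KO replicates 1, 2 and 3, and at 107, 56.8 and 81.9 CPM in WT replicates 1, 2 and 3. Each Zpbp2 KO liver was below each WT liver, with a log2 fold change of -1.26 ± 0.347 and an adjusted p of 0.677 by edgeR and 0.0182 by DESeq2. Ces1d, a carboxylesterase that mobilises stored triglyceride, stood at -0.32 ± 0.107.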

How the data were processed

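RNA-seq was done on livers of 3 Zpbp2 KO and 3 WT mice, with poly(A) selection and a directional kit per the labels' protocols. The authors deposited raw counts for each Ensembl gene in each library, not normalized. STAR, Picard, HTSeq and the build mm9 are named per the submitters' processing notes. Versions, annotation and strand setting: not given in the sources used here. All 6 columns were used, each matched by title.

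Of 37991 IDs, 32919 (86.6%) matched a symbol of GENCODE M21 or RefSeq. Lengths came from GENCODE M21 (GRCm38), and no mm9 coordinates are printed. Totals were 37904891 to 52955687, so 3 counts, the limit that a count of 0 allows, are 0.0567 to 0.0791 CPM before TMM scaling. Such limits cover counting error only.

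edgeR 4.0.16 (R 4.3.3) kept 14686 genes (filterByExpr, minimum count 10), scaled by TMM and compared Zpbp2 KO with WT by the quasi-likelihood F-test, two-sided, with no covariate and Benjamini-Hochberg adjustment over all tested genes (threshold 0.05). The SE is the one implied by the test. Scripts were tested on simulated data. Alternatives were DESeq2 1.42.0, limma-voom (limma 3.58.1), other scaling, other filters, the replicate number as a block and each library left out.

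The members and lists were chosen with earlier results of these data known. Named were all members, Zpbp2, the 2 tested genes with the smallest p of each list (edgeR called none) and the 5 genes most like Lpin1 (log2 CPM, prior count 2). Others were chosen after their values were seen. Of the hepatocyte markers, 6 of 7 were in the table. The labels name separate livers, so the spread within a group is between animals.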

Additional observations from a re-analysis of the deposited data

How the results depend on the processing

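Of 140 member fold changes under alternatives, 121 kept their direction and side of the threshold, 18 turned sign and 1 crossed the threshold. Lpin1 kept its sign in all 14 alternatives, from 1.01 without Zpbp2 KO replicate 3 to 1.85, and passed with DESeq2 alone (1.21). The sign turned for Lpin2 (0.50), Lpin3 (-0.041), Gpam (0.086) and Gpat4 (0.11) without Zpbp2 KO replicate 1 and WT replicate 1, for Gpam without a filter (0.00043) and for Mogat1 with limma-voom (-0.0060). With 1 library left out at a time, ranges were -0.42 to 0.31 for Lpin2, -0.062 to 0.20 for Lpin3, -0.13 to 0.072 for Gpam, -0.26 to 0.16 for Gpat4, -0.20 to 0.10 for Agpat2, -0.071 to 0.98 for Mogat1 and -0.65 to 0.032 for Soat1. The cause was not tested.

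Over all genes, DESeq2 called 27 higher and 49 lower, no filter 3 and 9, and the fit without both libraries 0 lower, with fewer samples. With 1 library left out, 0 to 1 were higher (1 without Zpbp2 KO replicate 1) and 2 to 4 lower (4 without Zpbp2 KO replicate 2). DESeq2 called 1 member higher and 1 gene of triglyceride storage and export (G0s2). Some list medians moved by at least the spread of the list between livers. Fatty acid uptake did (0.0053 without both libraries, -0.077 to 0.0078 with 1 left out). So did branch enzymes (-0.13 with library totals, -0.076 without both libraries, -0.14 to -0.055 with 1 left out). With 1 left out, the other MGAT and DGAT genes (-0.20 to 0.027) and triglyceride storage (-0.21 to 0.029) moved too. The remaining lists stayed within that spread. Their ranges with 1 left out were -0.27 to -0.10 for glycerol 3-phosphate supply and -0.15 to 0.079 for the other phosphatases. They were -0.059 to 0.016 for the other GPAT and AGPAT genes and -0.12 to -0.021 for lipin regulators.

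Shares depend on the length used. Without division by length, Lpin1 was 18.0% in WT, Lpin2 63.5% in Zpbp2 KO and 79.6% in WT, Lpin3 1.97% and 2.41%, and Agpat2 46.4% and 45.7% in Zpbp2 KO and WT. With principal transcripts, Lpin1 was 17.9% in WT, Lpin2 78.3% in WT, Lpin3 3.14% in Zpbp2 KO, and Dgat2 95.5% in Zpbp2 KO and 94.8% in WT.

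The values showed no pairing of livers by replicate number, though 3 livers per genotype cannot exclude one. Deviations of same-numbered livers correlated at 0.142, 0.197 and -0.237, and 1 of 3 Zpbp2 KO livers resembled its own number most. With the replicate block Lpin1 stood at 1.23 (edgeR adjusted p = 0.756), and 0 genes were called higher and 2 lower.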

Other observations

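Acsl3 and Pck1, which belong to the pathway lists already counted above, also had Zpbp2 KO replicate 3 and WT replicate 1 as their top livers. Their log2 fold changes between the genotypes were -0.12 ± 0.219 and -0.41 ± 0.259. Acsl3, an acyl-CoA synthetase of lipid droplets, stood at 46.9 CPM in Zpbp2 KO replicate 3 and 41.1 CPM in WT replicate 1, and at 24.8 to 36.2 CPM in the other 4 livers. Pck1, the gluconeogenic enzyme that also feeds glycerol 3-phosphate synthesis, stood at 2766 CPM in Zpbp2 KO replicate 3 and 3629.6 CPM in WT replicate 1. The next liver, WT replicate 3, lay close to the lower of these at 2744 CPM, so the pair was not set apart for Pck1. Zpbp2 KO replicates 1 and 2 and WT replicate 2 stood at 1967, 1540 and 1989 CPM. These genes were chosen after their values were seen.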
